A study of Homo sapiens with 16 samples.

Results

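The genes described here encode Ku and its partners in non-homologous end joining: XRCC6, XRCC5, PRKDC, DCLRE1C, XRCC4, LIG4, NHEJ1, TP53BP1 and PARP1. They were chosen by name, 9 of the 60107 genes counted in each library, and XRCC6 was the starting point because its tag count was lower in induced cells. The Induced against Control values of XRCC6 are therefore given as a description without a test, as are all quantities built from them. All libraries came from cytoplasmic RNA of U2OS-TR, human osteosarcoma cells into which the tetracycline repressor had been stably introduced. In the transgene line, U2OS-TR/ΔN-RNMT, a CMV promoter with tetracycline operators drives ΔN-RNMT, a truncated cap methyltransferase that lacks its nuclear localization sequences and carries a mutation in the S-adenosylmethionine site. The study used it to ask which mRNAs depend on cap methylation in the cytoplasm. The 5 Control libraries came from uninduced cells of this line and the 5 Induced libraries from cells given doxycycline 48 h after plating and collected 24 h later. The parental U2OS-TR line, which carries the repressor and no transgene, gave 3 NoDox (untreated) and 3 WithDox (doxycycline-treated) libraries on the same schedule. The transgene line is 1 clone, so all of its libraries share whatever sets that clone apart. The treatment field of all 16 libraries names 1 μg/ml doxycycline, whereas the methods and the sample titles give it to the Induced and WithDox cells, and the latter was used here.

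Non-homologous end joining rejoins broken chromosomes without a template and works throughout the cell cycle. The Ku heterodimer of XRCC6 (Ku70) and XRCC5 (Ku80) threads onto DNA ends and recruits the catalytic subunit of DNA-PK, encoded by PRKDC. The nuclease Artemis (DCLRE1C) trims ends that cannot be joined directly, and DNA ligase IV (LIG4) seals them together with XRCC4 and XLF (NHEJ1). 53BP1 (TP53BP1) binds chromatin around the break and restrains resection, and PARP1 is a sensor of strand breaks that also serves a backup route of joining.

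XRCC6 lies on chromosome 22 (GRCh38, 22:41621163-41664048, plus strand) and has 13 exons in its main GENCODE transcript. The assay, QuantSeq REV, yields 1 sequence tag per captured mRNA next to the poly(A) tail, so the counts report the 3′ ends of these mRNAs. The study measured XRCC6 by RT-qPCR at the opposite end, and its primers are shown to place that assay against the tags.
XRCC6 forward primer: cgtggattgtcgtcttctgt
XRCC6 reverse primer: tcttgttcttcctctgcttctt
The forward primer matched 22:41621298-41621317 in exon 1, outside the coding sequence, and the reverse primer matched 22:41622045-41622066 in exon 2, inside it. The amplicon spanned 125 bases and ended 1994 bases before the 3′ end of the transcript of 2122 bases. The tag counts and that assay therefore read different ends of the same mRNA. They also differ in time and scaling. The RT-qPCR was done earlier after doxycycline than the 24 h of the tags. Its figure legend gives normalization to a spiked mRNA, and the methods also name the endogenous mRNA STRN4. The study reported lower XRCC6 mRNA in that assay, and the RT-qPCR itself was not analysed here.

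Because the study dealt with events at mRNA 5′ ends, the annotated starts of the members were read from RefSeq (GRCh38.p14). The table of RefSeq starts used here matched 7 of the 9 members, all but XRCC5 and PRKDC. The 4 members with 1 listed start are shown, each with 15 bases before the start in lower case and the first 15 transcribed bases in capitals.
XRCC6 (22:41621280-41621309, plus strand): gtacagggcccgcgcATGCGTGGATTGTCG
XRCC4 (5:83077532-83077561, plus strand): gtagctgatactctcATTGGTTGCAAAACC
TP53BP1 (15:43510626-43510655, minus strand): tgataagtactgtctGGCAATTCCGCAGCC
PARP1 (1:226408079-226408108, minus strand): ccgcggccaggcatcAGCAATCTATCAGGG
The start of a 5′-terminal oligopyrimidine mRNA, here taken as a C followed by further C or T bases to a run of at least 5, was looked for on the transcribed strand. It was at none of the listed starts of the 7 members, and at 4.07% of all 35116 starts in the table.

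Depth ranged from 12527183 to 23251834 gene counts in the transgene line and from 1473286 to 3214808 in the parental line. RNMT, for which it was not tested whether tags of the transgene are counted on it, separated the groups as labelled, at 74.1 ± 22.3 CPM (SD, n = 5) in Control and 345 ± 77.8 CPM (SD, n = 5) in Induced, where CPM is edgeR's cpm unit, a gene's tags relative to the library total after scaling with TMM factors. Of the bone and mesenchymal markers VIM, SPARC, COL1A1 and RUNX2 passed the filter on low counts, while the osteoblast genes SP7, BGLAP and IBSP were at 0 in every library of the transgene line. VIM and RUNX2 rose on induction (log2 fold changes 1.44 and 1.16). COL1A1 and SPARC did not pass the test (log2 fold changes 0.00026 and 0.05, adjusted p = 0.999 and 0.826, edgeR). COL1A2, ALPL and SPP1 were under the filter. The summed level of the 10 markers was 306 to 641 CPM in Control and 492 to 883 CPM in Induced. Markers of other cell types summed to 6.04 to 14.2 CPM in Control and 8.64 to 17.5 CPM in Induced, with CD3E, ALB and MYOG at 0. Among them only EPCAM passed the filter, at 7.84 ± 2.31 CPM in Control and 12.03 ± 3.33 CPM in Induced (SD). Its rise did not pass the test (log2 fold change 0.61, adjusted p = 0.0772, edgeR). The bone marker RUNX2 was at 7.68 ± 2.80 CPM in Control and 17.3 ± 4.48 CPM in Induced (SD). The part of these shifts in the results was not tested. Fewer cells of a type and less RNA per cell cannot be told apart in bulk libraries. Control replicate 5 and Induced replicate 2 stood apart from the rest of their groups, and the value without both is given for each member. These 2 libraries were picked after the data were seen, and leaving out libraries that lie towards the other group widens a difference. Without both, 64.3% of all genes tested passed, beside 39.8% with all libraries. Adjusted p values without both are therefore a description and not support for a change. Control 5 was the Control library nearest to the Induced group for 5 of the 9 members, and Induced 2 was the Induced library nearest to the Control group for 7 of 9. RNMT was at 112 CPM in the former and 360 CPM in the latter, each on the side of its label.

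XRCC6 had the highest mean tag count of the 9 mRNAs in every group, and its level was 2.92-fold lower in Induced than in Control. The 5 Control libraries held 2597, 2851, 4474, 2192 and 1022 CPM. The 5 Induced libraries held 674, 1529, 744, 812 and 746 CPM. Control 5 lay below Induced 2, so the groups overlapped through these 2 libraries, and all other Control libraries were above all Induced ones. On the log2 scale the difference was -1.54, between -1.82 and -1.29 when each library was left out in turn, and -2.02 without Control 5 and Induced 2. With 1 surrogate variable as covariate it was -0.68. XRCC6 has 5 processed copies annotated as pseudogenes, which held 27 counts in total in all libraries beside 365327 for XRCC6.

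XRCC5, the other Ku subunit, did not pass the test in either line. Control libraries held 476, 422, 315, 520 and 578 CPM, and Induced libraries 681, 563, 643, 518 and 297 CPM. The groups overlapped almost completely, and the lowest of all 10 values was in Induced 5. Its log2 fold change was 0.22 ± 0.24 (SE; adjusted p = 0.446, edgeR quasi-likelihood test with Benjamini-Hochberg adjustment), and 0.29 (adjusted p = 0.321) without Control 5 and Induced 2. Within the Control group the subunits were ordered in opposite ways, with Control 3 highest for XRCC6 and lowest for XRCC5, and Control 5 the reverse.

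The ratio of XRCC6 to XRCC5 tags within a library does not depend on scaling. It is not a ratio of proteins, and capture can differ between the mRNAs, so only its change between libraries is described. The ratio was 5.45, 6.75, 14.2, 4.21 and 1.77 in Control and 0.991, 2.72, 1.16, 1.57 and 2.51 in Induced. Induced 1 was the library in which XRCC5 tags matched those of XRCC6, and the groups overlapped again through Control 5. The mean log2 ratio was 2.39 ± 1.09 (SD, n = 5) in Control and 0.72 ± 0.65 (SD, n = 5) in Induced, a difference of -1.66, or 3.17-fold lower. Without Control 5 and Induced 2 the difference was -2.23.

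In the parental line the ratio was 13.8, 4.30 and 8.48 in NoDox and 10.2, 3.85 and 16.01 in WithDox. The WithDox values reached below and above all the NoDox ones. The mean log2 ratio was 2.99 ± 0.84 (SD, n = 3) in NoDox and 3.10 ± 1.05 (SD, n = 3) in WithDox, a difference of 0.11 that changed sign when NoDox 2, WithDox 1 or WithDox 3 was left out (-0.33, -0.02 and -0.34).

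**Figure D1:**
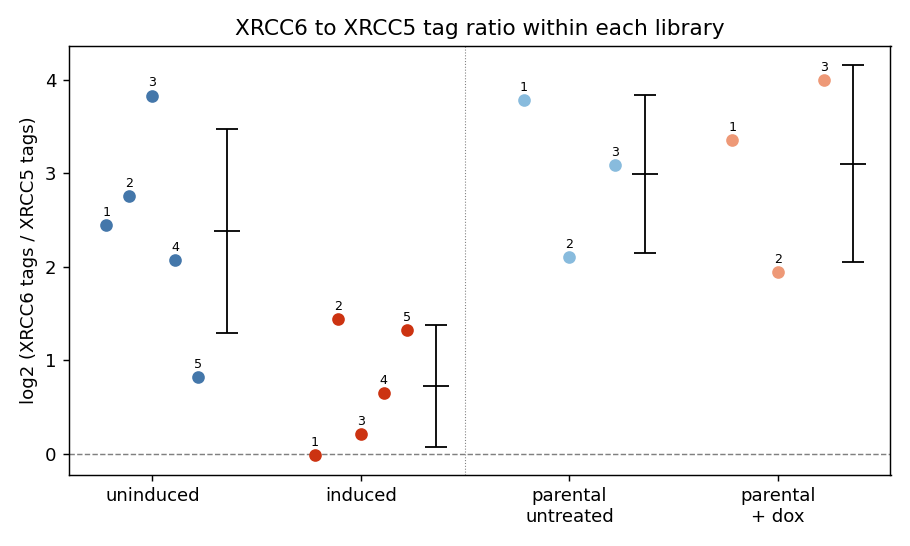
Log2 ratio of XRCC6 to XRCC5 tag counts in each library (vertical axis) by group (horizontal axis), with replicate numbers above the points and the mean and SD as black bars. Ratios in Induced ran from 0.991 to 2.72 and in Control from 1.77 to 14.2, while both parental groups reached above 13.

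Of the 8 members other than XRCC6, 4 rose on induction, 0 fell and 4 did not pass the test. Of all 13038 genes tested in the transgene line, 39.8% passed the test in either direction, 20% rose and 19.8% fell, so the share of members that passed was near that of all genes. The median log2 fold change of the 8 was 0.79, beside 0.04 over all genes tested. PRKDC, XRCC4, LIG4 and PARP1 were the members that rose. The count was 6 of 8 without Control 5 and Induced 2, with NHEJ1 rising and DCLRE1C falling besides, where 64.3% of all genes passed. With offsets for GC content it was 2 (PARP1 higher, DCLRE1C lower), where 26.7% of all genes passed. It was 0 with a surrogate variable, a fit in which 1 gene of all those tested passed. It was 2 without Control 2 or without Induced 1, and 1 without Induced 4, fits for which the share of all genes is not given here.

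PRKDC, the catalytic subunit of the DNA-dependent protein kinase (8:47773111-47960178, minus strand, 86 exons), was the only member whose Control and Induced groups did not overlap, as was so for 7.3% of all genes tested. Control libraries held 15.05, 20.0, 25.8, 16.9 and 24.5 CPM, and Induced libraries 27.5, 31.7, 31.0, 44.5 and 39.5 CPM. Every Induced library was above every Control library, although the nearest values differed by little. It rose by 0.77 ± 0.20 (log2, SE; adjusted p = 0.0184, edgeR), and by 0.87 (adjusted p = 0.00219) without Control 5 and Induced 2. The adjusted p was 0.0502 without Induced 4, 0.0509 with GC offsets and 0.0653 with a surrogate variable.

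DCLRE1C, which encodes the end-trimming nuclease Artemis (10:14897359-14954432, minus strand), was at lower levels in most Induced libraries and missed the threshold. Control libraries held 18.2, 19.7, 34.5, 17.5 and 11.2 CPM, and Induced libraries 11.1, 16.8, 10.8, 12.1 and 10.96 CPM. As for XRCC6, Control 5 sat among the Induced libraries, Induced 2 stood closest to the Control ones and Control 3 was the highest of all. The log2 fold change was -0.71 ± 0.27 (SE; adjusted p = 0.0528, edgeR). Leaving out Control 3 brought it to -0.45 (adjusted p = 0.108, edgeR), leaving out Control 5 to -0.87 (adjusted p = 0.00541) and leaving out Induced 2 to -0.85 (adjusted p = 0.0280). It was -0.998 (adjusted p = 0.00115, edgeR) without Control 5 and Induced 2, -1.11 (adjusted p = 0.0335) with GC offsets, and -0.07 with a surrogate variable.

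The ligation complex was at low levels in these libraries, and XRCC4 and LIG4 rose by similar factors. XRCC4, the scaffold that stabilizes DNA ligase IV (5:83077498-83353787, plus strand), was at 8.46, 5.95, 4.66, 6.62 and 9.35 CPM in Control and at 12.4, 8.12, 12.6, 13.7 and 15.2 CPM in Induced. Induced 2 fell within the Control range, and the other 4 Induced libraries were above it. Its rise was 0.82 ± 0.23 (log2, SE; adjusted p = 0.0206, edgeR), with adjusted p values of 0.0551, 0.0507 and 0.0522 without Control 2, Induced 1 or Induced 4. Without Control 5 and Induced 2 it was 1.06 (adjusted p = 0.000516, edgeR).

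LIG4, the ligase itself (13:108207439-108218368, minus strand), was at 1.77, 1.40, 1.66, 1.59 and 2.77 CPM in Control and at 3.05, 1.83, 3.54, 4.05 and 3.79 CPM in Induced. These levels rested on 24 to 88 tags per library. Again Induced 2 lay inside the Control range, and Control 5 was the highest Control library. LIG4 rose by 0.81 ± 0.27 (log2, SE; adjusted p = 0.0331, edgeR), and the call was lost in 8 of 10 fits with 1 library left out, with adjusted p values up to 0.0820. It rose by 1.16 on the log2 scale without Control 5 and Induced 2 (edgeR, adjusted p = 0.000379). With GC offsets the log2 fold changes of XRCC4 and LIG4 were 0.29 and 0.26, and neither passed (adjusted p = 0.201 and 0.320).

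NHEJ1, which encodes XLF (2:219069355-219160869, minus strand), had the lowest counts of the set, 2 to 54 tags per library of the transgene line. It was at 0.253, 0.292, 0.111, 0.628 and 1.99 CPM in Control and at 2.60, 0.798, 3.42, 1.66 and 2.37 CPM in Induced. All Induced libraries were above 4 of the 5 Control libraries, and Control 5 was above Induced 2 and Induced 4. Its log2 fold change was 1.65 ± 0.62 (SE; adjusted p = 0.0527, edgeR), and 2.89 (adjusted p = 9.45e-05) without Control 5 and Induced 2. It passed without Control 5 alone (2.67, adjusted p = 0.000980, edgeR) and without Induced 2 alone (1.87, adjusted p = 0.0285, edgeR). Without any other 1 library it did not pass (adjusted p = 0.0799 to 0.119, edgeR). Nor did it pass with GC offsets (1.56, adjusted p = 0.0672, edgeR) or a surrogate variable (0.69, adjusted p = 0.128, edgeR). With total counts alone, the replicate number as a block, or that block and GC offsets, it passed (adjusted p = 0.0434, 0.0327 and 0.0450, edgeR). DESeq2's Wald test, with 1.67 (adjusted p = 0.0197), was past the threshold, where 46.1% of all genes passed. The last exon of NHEJ1 overlaps ENSG00000280537 on the same strand and ENSG00000286606 on the opposite strand, which were not analysed here, so how tags were shared out among them is unknown.

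TP53BP1, which encodes 53BP1 (15:43403061-43510728, minus strand), had the smallest change of the members. Control libraries held 62.0, 64.1, 59.2, 69.6 and 61.9 CPM, and Induced libraries 76.5, 66.5, 73.8, 69.6 and 47.7 CPM. Induced 5 was the lowest of all and Induced 1 the highest, so the Induced values spread to either side of the Control range. The log2 fold change was 0.08 ± 0.15 (SE; adjusted p = 0.688, edgeR), and 0.062 (adjusted p = 0.757) without Control 5 and Induced 2. Its last exon overlaps TUBGCP4 on the opposite strand, a gene with 4390 counts in these 10 libraries beside 12192 for TP53BP1, and it is not stated whether the counting used strand.

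PARP1, the strand-break sensor that builds poly(ADP-ribose) chains (1:226360210-226408154, minus strand), had the largest change among the members that passed. Control libraries held 76.3, 98.1, 142.3, 103 and 106 CPM, and Induced libraries 310, 126, 318, 341 and 323 CPM. The Induced libraries other than Induced 2 lay close together and far above every Control library, while Induced 2 was below Control 3. PARP1 rose by 1.43 ± 0.27 (log2, SE; 2.70-fold; adjusted p = 0.0175, edgeR). It stayed between 1.33 and 1.62 when each library was left out, with adjusted p values up to 0.0495, and was 1.49 (adjusted p = 0.0653) with a surrogate variable. Without Control 5 and Induced 2 it was 1.62 (adjusted p = 1.29e-05, edgeR). The 2 PARP1 pseudogenes held 138 counts in all libraries beside 36044 for PARP1.

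**Figure D2:**
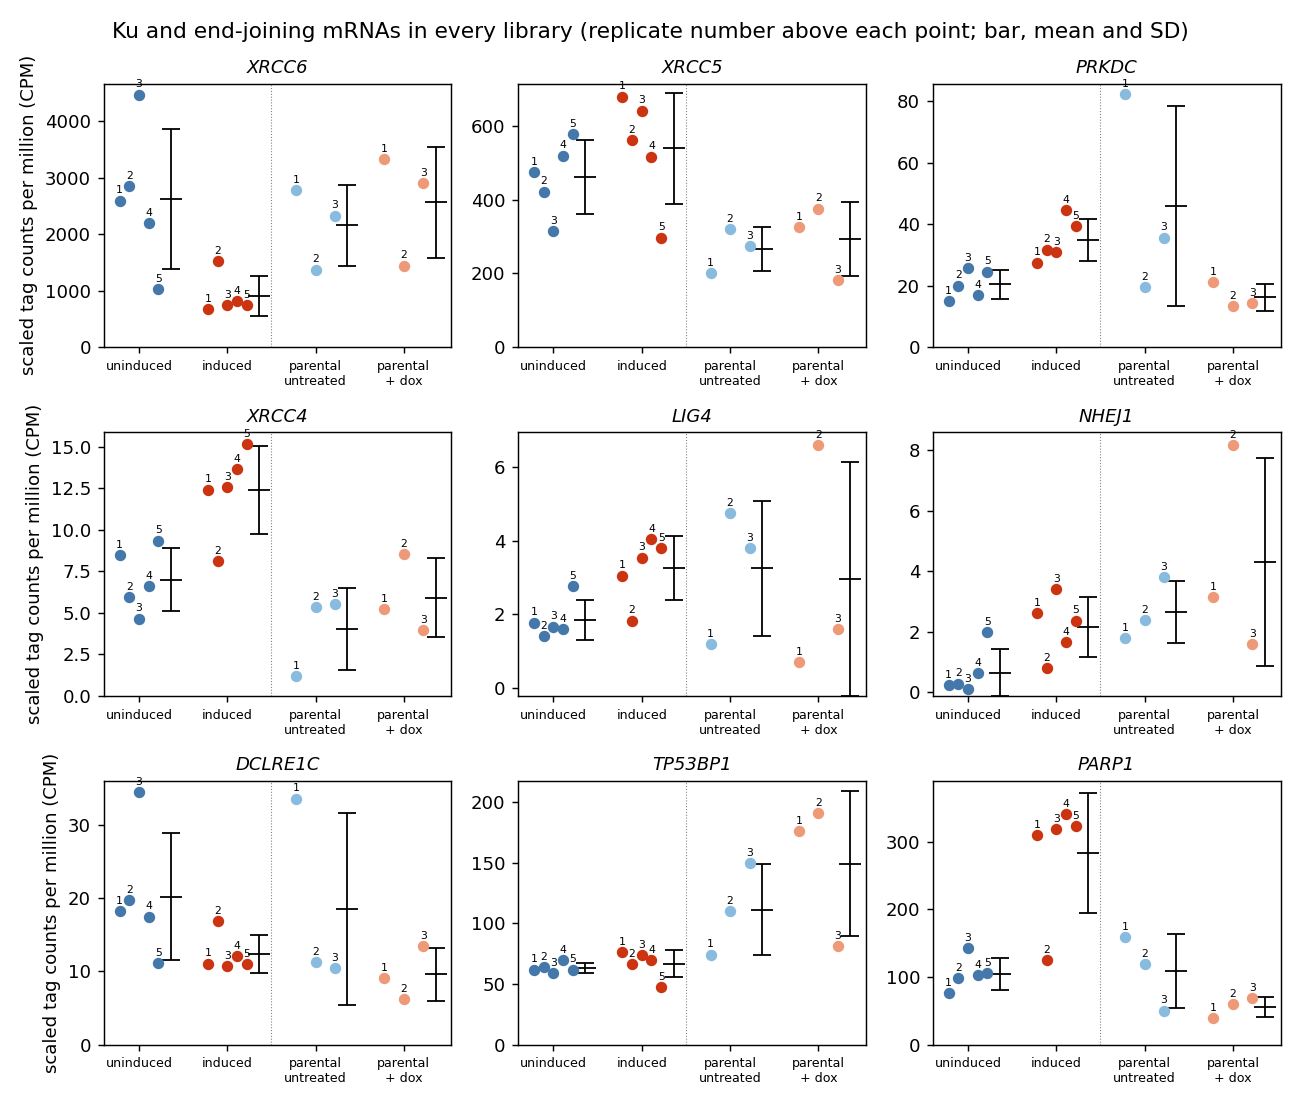
Level of each member in all 16 libraries in CPM (vertical axes, linear, 1 scale per gene) by group (horizontal axes), with replicate numbers above the points and mean and SD as black bars. XRCC6 runs from 674 to 1529 in Induced and from 1022 to 4474 in Control, and PARP1 in Induced sits at 310 to 341 apart from replicate 2 at 126.

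The parental line asks what doxycycline does without the transgene. None of the 6 members tested there passed (0 of 6), as for all 9124 genes tested, of which 0% passed edgeR's test, 267 (2.93%) had an unadjusted p below 0.05 and 1, no member, passed DESeq2's. XRCC4, LIG4 and NHEJ1, at 2 to 22 counts per library, were under the base mean of 20 and were not tested. XRCC6 was at 2780, 1375 and 2332 CPM in NoDox and at 3330, 1446 and 2913 CPM in WithDox. The second replicate of each treatment was low and the others were high, and the treatments overlapped. The log2 fold change was 0.25 ± 0.49 (SE; adjusted p = 0.997, edgeR), with an approximate 95% interval from -0.73 to 1.22.

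PRKDC was the only member with an unadjusted p below 0.05 in the parental line. It was at 82.1, 19.6 and 35.6 CPM in NoDox and at 21.2, 13.2 and 14.3 CPM in WithDox. NoDox 1 was far above the rest, and NoDox 2 was below WithDox 1. The log2 fold change was -1.48 ± 0.55 (SE; unadjusted p = 0.0219, adjusted p = 0.997, edgeR) and -0.70 in the fit with 1 library left out that was nearest to 0.

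PARP1 was at 159, 119 and 50.5 CPM in NoDox and at 39.7, 59.8 and 69.1 CPM in WithDox. Its NoDox values were spread widely and reached into the WithDox range, with a log2 fold change of -0.96 ± 0.48 (SE; adjusted p = 0.997, edgeR). DCLRE1C was at 33.6, 11.3 and 10.5 CPM in NoDox and at 9.06, 6.22 and 13.5 CPM in WithDox, with a log2 fold change of -0.95 ± 0.60 (SE; adjusted p = 0.997, edgeR). NoDox 1 was again the library apart, and it had the highest share of mitochondrial counts of all libraries (9.38%, against 0.854% to 5.78% in the others) and, in the parental line, of the nuclear-retained RNAs MALAT1, NEAT1 and KCNQ1OT1 (0.171%, against 0.0225% to 0.119%). The part of these shares in the result was not tested. XRCC5 and TP53BP1 had log2 fold changes of 0.15 ± 0.41 and 0.43 ± 0.45 (SE) with overlapping treatments.

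The test of whether the lines responded differently covered 7 members besides XRCC6, since NHEJ1 was under the base mean, and 2 passed, PRKDC and PARP1. Differences of the other 5 (log2 ± SE) were 0.07 ± 0.55 for XRCC4, 0.02 ± 0.61 for DCLRE1C and 0.69 ± 0.76 for LIG4. Those of XRCC5 and TP53BP1 were -0.14 ± 0.41 and -0.57 ± 0.38. The lowest adjusted p of these 5 was 0.347 (edgeR), so for them a response particular to the transgene line was not shown. Of the 12265 genes tested, 2.98% passed in either direction and 0.775% with the higher response in the transgene line. The response of PRKDC was higher in the transgene line by 2.03 ± 0.51 (log2, SE; adjusted p = 0.0450, edgeR) and that of PARP1 by 2.15 ± 0.52 (log2, SE; adjusted p = 0.0433, edgeR). In each the difference joined a rise in Induced cells to a lower mean in WithDox than in NoDox that had not passed its own test. Without Control 5 and Induced 2 the differences were 2.08 (adjusted p = 0.0134, edgeR) for PRKDC and 2.30 (adjusted p = 0.00447, edgeR) for PARP1. The nuclear-retained RNA MALAT1 moved in the same way, at 303 to 1278 CPM in NoDox and 118 to 126 CPM in WithDox (log2 fold change -2.57 ± 0.54 SE, adjusted p = 0.997, edgeR) and with a difference between the lines of 2.37 ± 0.52 (log2, SE; adjusted p = 0.0405, edgeR). In the parental line MALAT1 passed in 2 of 10 fits that kept all libraries. Its part in the result was not tested. The calls of PRKDC and PARP1 were both lost without any 1 of Control 1 to 4, Induced 1, 3, 4 or 5, NoDox 1, or WithDox 1 or 3 (adjusted p up to 0.130), and that of PARP1 without NoDox 2. With GC offsets 1 of them, PARP1, passed, as did 2.86% of all genes tested. The lines were sequenced at different facilities with different read lengths, which cannot be told apart from the line itself. For XRCC6 the same difference was -2.02, given without a test.

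**Figure D3:**
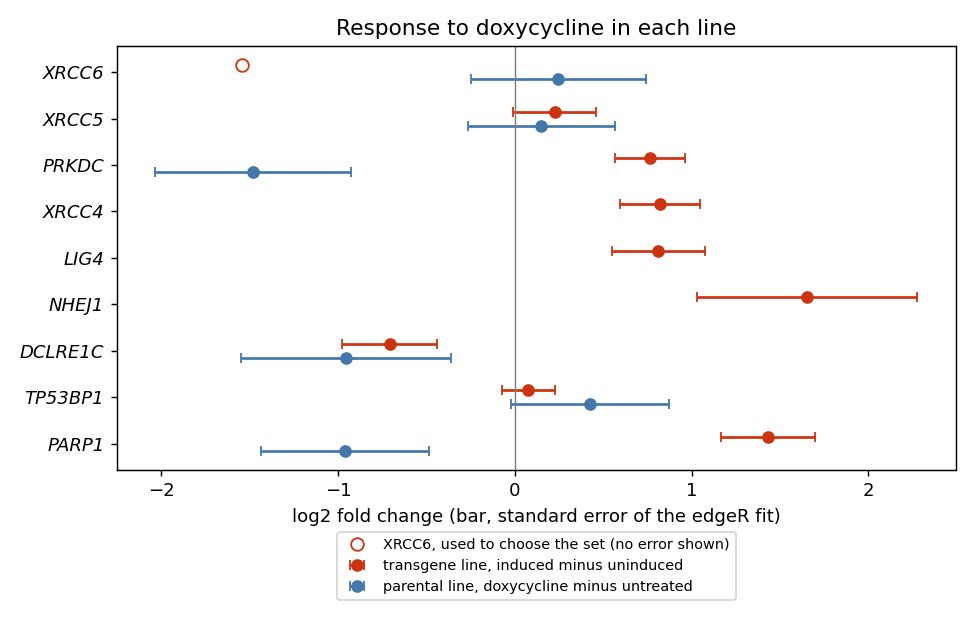
Log2 fold change of each member (horizontal axis; bars are standard errors of the edgeR fit) on doxycycline in the transgene line (red) and the parental line (blue). The open circle is XRCC6 in the transgene line at -1.54, shown without an error because it was used to choose the set, and the lines point in opposite directions for PRKDC (0.77 and -1.48) and PARP1 (1.43 and -0.96).

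Among the 10 libraries of the transgene line the other members fell into different orders. The Pearson correlation of log2 CPM with XRCC6 was 0.95 for DCLRE1C, -0.98 for NHEJ1, -0.94 for XRCC4, -0.91 for LIG4, -0.77 for PARP1, -0.66 for PRKDC, -0.45 for XRCC5 and -0.17 for TP53BP1 (10 libraries each). These points share the libraries, the scaling and the induced state, and they are a description only. Values this high were common, with 2099 of the 13037 other genes above 0.9 and 2329 below -0.9. The 5 genes closest to XRCC6 were ENSG00000277602, which has no symbol (0.998), PRKAG1, a regulatory subunit of AMP-activated protein kinase (0.997), DCTN2, a subunit of dynactin (0.997), UNC45A, a myosin chaperone (0.996), and THOC5, a member of the mRNA export complex THO (0.996). PRKAG1 was at 376 ± 175 CPM in Control and 137 ± 43.1 CPM in Induced (SD, n = 5 each).

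The wider network of DNA break repair was described with 5 lists of 80 genes, of which 78 passed the filter on low counts in the transgene line. Of these, 13 fell and 16 rose, together 37.2% beside 39.8% of all genes, and their median log2 fold change was 0.08 beside 0.04 over all genes. The counts were 20 and 29 without Control 5 and Induced 2, where 64.3% of all genes passed. Without 1 library they were 6 and 9 (Control 1), 5 and 8 (Control 2), 4 and 9 (Induced 1 or Induced 3) or 3 and 8 (Induced 4). Without Control 4, 7 fell, and without Control 5, 29 rose. The share of all genes in these fits is not given here, so whether such shifts are particular to these lists cannot be told. In the parental line 61 were tested and 0 passed edgeR's test, with 4 at an unadjusted p below 0.05. With offsets for GC content many single calls in the transgene line were lost, and this is stated below for the genes named. In fits with 1 library left out, all 22 list genes named below for the size of their change kept their direction, and 9 of these (TDP2, TRIM28, UIMC1, LIG1, PARP3, APEX1, DNA2, BRIP1 and PALB2) also passed every time. The others of these 22 missed the threshold in at least 1 of those fits.

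Of the accessory factors of end joining, 5 of 12 fell, 2 rose and 5 did not pass, with a median of -0.30. TDP2, which removes trapped topoisomerase II from DNA ends, rose from 3.93 ± 1.71 to 17.3 ± 8.13 CPM (log2 fold change 2.13 ± 0.44 SE, adjusted p = 0.0175, edgeR), with Induced 2 at the bottom of its group inside the Control range. WRN, a helicase and exonuclease that binds Ku, rose from 9.28 ± 0.829 to 13.5 ± 2.21 CPM without overlap of the groups, and its call was lost with GC offsets (adjusted p = 0.665). POLL, a gap-filling polymerase of end joining, fell from 55.9 ± 24.9 to 27.8 ± 6.00 CPM. TRIM28, a chromatin corepressor phosphorylated at breaks, fell from 173 ± 38.6 to 96.6 ± 20.7 CPM. The falls of POLL and TRIM28 did not pass with GC offsets (adjusted p = 0.0669 and 0.0705).

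Of the break-signalling and 53BP1 pathway genes, 5 of 22 rose, 2 fell and 15 did not pass, with a median of 0.07. SHLD3, the shieldin subunit that links the complex to 53BP1 chromatin, rose from 2.12 ± 3.04 to 12.1 ± 5.30 CPM, a change of 2.47 ± 0.77 (log2, SE; adjusted p = 0.0289, edgeR), with as few as 2 tags in a Control library. UIMC1, the ubiquitin reader RAP80, rose from 5.71 ± 2.57 to 15.1 ± 5.27 CPM, and PAXIP1, the 53BP1 partner PTIP, from 1.15 ± 0.514 to 2.32 ± 0.401 CPM. These 3 passed with GC offsets too. KAT5, the acetyltransferase TIP60, fell from 108 ± 17.9 to 76.8 ± 9.43 CPM, and BABAM2, a subunit of the BRCA1-A complex, from 92.6 ± 13.8 to 66.4 ± 13.02 CPM. The call of KAT5 was lost with GC offsets (adjusted p = 0.260).

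Of the genes of alternative end joining and single-strand break repair, which work with PARP1, 3 of 13 rose, 3 fell and 7 did not pass, with a median of 0.06. APEX1, the abasic-site endonuclease, rose from 19.2 ± 5.52 to 63.1 ± 23.5 CPM (log2 fold change 1.71 ± 0.31 SE, adjusted p = 0.0175, edgeR). POLQ, the polymerase of theta-mediated joining, rose from 5.97 ± 1.15 to 9.82 ± 2.55 CPM, and PARG, which degrades the chains that PARP1 makes, from 4.90 ± 0.922 to 8.02 ± 1.93 CPM. Neither of these rises passed with GC offsets (adjusted p = 0.145 and 0.0851). PARP3, a relative of PARP1 that promotes end joining with Ku, fell from 66.7 ± 22.6 to 27.8 ± 8.64 CPM, with a change of -1.26 ± 0.28 (log2, SE; adjusted p = 0.0175, edgeR). LIG1, the replicative ligase, fell from 538 ± 154 to 268 ± 36.1 CPM, and POLE4, a small subunit of polymerase epsilon, from 18.7 ± 1.61 to 13.5 ± 2.52 CPM.

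Of the resection and homologous recombination genes, 5 of 24 rose, 2 fell and 17 did not pass, with a median of 0.37. DNA2, a nuclease of long-range resection, rose from 3.11 ± 0.527 to 14.9 ± 7.14 CPM (log2 fold change 2.25 ± 0.39 SE, adjusted p = 0.0175, edgeR). PALB2, which links BRCA1 to BRCA2, rose from 1.28 ± 1.19 to 5.67 ± 2.48 CPM, and BRIP1, a helicase bound by BRCA1, from 24.0 ± 7.60 to 44.3 ± 6.79 CPM, the latter short of the threshold with GC offsets (adjusted p = 0.0521). BRCA1 itself fell from 26.0 ± 11.6 to 15.5 ± 3.55 CPM (adjusted p = 0.0494, edgeR), with adjusted p values up to 0.110 when 1 library was left out. XRCC3, a recombination factor, fell from 4.68 ± 1.17 to 3.01 ± 0.695 CPM, a call lost with GC offsets (adjusted p = 0.394).

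Of the telomere proteins that act beside Ku, 1 of 7 rose, 1 fell and 5 did not pass, with a median of 0.07. DCLRE1B, the telomeric nuclease Apollo and a relative of Artemis, rose from 17.5 ± 5.76 to 30.3 ± 6.43 CPM, whereas ACD, the shelterin subunit TPP1, fell from 20.2 ± 4.85 to 10.1 ± 3.43 CPM. Levels in these lists are means ± SD over 5 Control and 5 Induced libraries. Among the 22 list genes named for the size of their change, the groups overlapped for all but WRN. For DNA2 the lowest Induced library was at 3.47 CPM and the highest Control library at 3.68 CPM. For APEX1 these were 24.5 and 27.7 CPM, and for PALB2 1.78 and 3.33 CPM. In the test of the difference between the lines 3 of the 74 list genes tested passed (4.05%, beside 2.98% of all genes tested), PARP3 (-2.26 ± 0.55, log2, SE), DNA2 (2.77 ± 0.64) and USP28 (1.54 ± 0.33), the last a 53BP1-bound deubiquitinase. Each of these 3 calls was lost in some fits with 1 library left out.

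**Figure D4:**
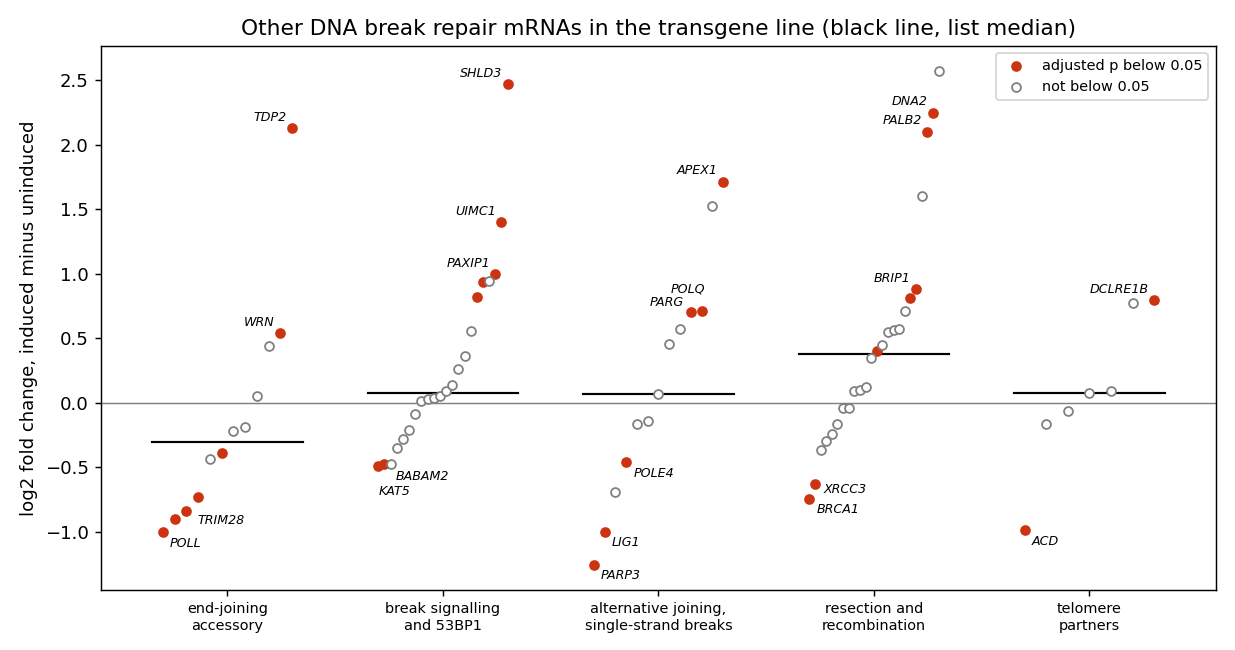
Log2 fold change of each tested gene in the 5 repair lists, Induced minus Control (vertical axis), by list (horizontal axis), with filled red points for an adjusted p below 0.05 and open points for the rest. Genes lie on either side of 0 in every list, and the black median lines run from -0.30 for the accessory factors to 0.37 for resection and recombination.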

How the data were processed

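The authors deposited, for each of 16 libraries, counts of QuantSeq REV tags per Ensembl gene from cytoplasmic RNA, made with the Lexogen QuantSeq pipeline for GRCh38 and not normalized. The aligner, whether strand was used, how duplicate tags were treated and which annotation was counted are not given in the sources used here. All columns were used. Gene names came from GENCODE release 44 (56104 of 60107 genes matched). Summary and spike-in entries, which name no gene, were left out; the 92 spike-in entries held 0 counts.

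Counts were tested by edgeR 4.0.16 under R 4.3.3 (quasi-likelihood test after TMM scaling, Benjamini-Hochberg over all genes with base mean above 20, calls at an adjusted p below 0.05): 13038 genes of the transgene line, 9124 of the parental line, 12265 for the difference. Standard errors are the size of the log2 fold change over the root of the test statistic. Log2 CPM used a prior count of 2. The members, lists and tests were chosen with earlier results of these data known. Genes named are the members, RNMT, the 3 largest rises and falls among called genes of each list (1 of these is not reported here), and the 5 genes most correlated with XRCC6; USP28 and the markers were named after their values were seen.

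Alternatives were DESeq2 1.42.0 (size factors, Wald test), total counts alone, filterByExpr, no filter, a replicate block, GC offsets (lowess span 0.5) with and without it, 1 surrogate variable (sva 3.50.0) and each library left out. Scripts were tested on simulated data. Libraries within a group all differed by more than sampling noise (lowest chi-square per degree of freedom 4.26), so none was taken as a duplicate. The study calls the transgene-line libraries biological replicates, the labels only number the libraries of both lines, and p-values measure the spread between these libraries.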

Additional observations from a re-analysis of the deposited data

Results flagged for a closer look

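In 4 of the 16 groups of 5 libraries tested (the 8 members other than XRCC6, in Control and in Induced), 1 library lay far from the others, where chance flags about 1 in 20 groups. Induced 2 was apart for DCLRE1C (16.8 CPM, next highest 12.1 CPM) and PARP1 (126 CPM, next lowest 310 CPM). Control 5 was apart for LIG4 (2.77 CPM, next highest 1.77 CPM) and NHEJ1 (1.99 CPM, next highest 0.628 CPM). These groups share their libraries, so the 4 cases are not independent.

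The responses of the lines differed by the test of the difference itself for PRKDC (2.03, log2, higher in the transgene line) and PARP1 (2.15, log2, higher in the transgene line). Adjusted p values were 0.0450 and 0.0433 (edgeR), and reached 0.130 for each with 1 library left out. The line cannot be told apart from sequencing facility and read length. Of the parental values behind these differences, the untreated library apart for PRKDC was NoDox 1 at 82.1 CPM.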

How the results depend on the processing

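The number of members called in Induced against Control was 4 of 8, 2 with GC offsets, 0 with 1 surrogate variable and 1 to 6 with 1 library left out. In the parental line it was 0 in every fit run. Of all genes tested in the transgene line, 39.8% passed in the main fit, 26.7% with GC offsets and 64.3% without Control 5 and Induced 2. That share was 41.6% with total counts alone and 17.3% without a filter. For the difference between the lines, the number of members called was 2 of 7, where 2.98% of all genes passed. With GC offsets it was 1, where 2.86% passed, and with 1 library left out it was 0 to 2. The wider lists, with 13 lower and 16 higher, gave 7 lower and 25 higher with total counts alone, 7 lower without a filter, 0 and 0 with the surrogate variable, 20 and 29 without Control 5 and Induced 2 (chosen after seeing the data), and 3 to 17 lower and 8 to 29 higher with 1 library left out. For fits with 1 library left out the share of all genes that passed is not given here, for members or for lists. Total counts alone moved the all-gene median log2 fold change from 0.04 to 0.28. The cause of these shifts was not tested.

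Small changes turned sign. XRCC5 in the transgene line was -0.084 with GC offsets, -0.11 with GC offsets and the replicate block and -0.073 with the surrogate variable, and TP53BP1 was -0.12 and -0.13 with GC offsets without and with the block. XRCC5 in the parental line was -0.062 with the surrogate variable and ran from -0.024 to 0.38 with 1 library left out. In the difference between the lines, XRCC5 was 0.38 with total counts alone, 0.028 without a filter and -0.38 to 0.22 with 1 library left out, XRCC4 was -0.28 with GC offsets and -0.13 to 0.62, and DCLRE1C was -0.26 with GC offsets, -0.31 without Control 5 and Induced 2 and -0.53 to 0.46. The Ku ratio difference ran from -2.05 to -1.30 for the transgene line and from -0.34 to 0.69 for parental cells with 1 library left out.

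Libraries with the same replicate number did not on average deviate together (mean correlation 0.0260, from -0.373 to 0.625, in transgene cells and -0.0598 in parental cells, with 1 of 5 and 1 of 3 libraries correlating best with their own number). The main tests therefore did not pair them. With so few libraries this cannot exclude pairing. Replicate 2 of transgene cells correlated at 0.625 with its own number and at -0.170 or less with the others. With the replicate number as a block, 5 of 8 members were called in transgene cells (NHEJ1 besides), where 39.8% of all genes passed, and 0 in parental cells. The lists gave 8 lower and 20 higher genes. Depth limits the parental line, where 3 members held 22 counts or fewer per library.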
